A study of Mus musculus with 9 samples.

Results

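The genes of a survival signalling axis of the retina were followed in wild-type (WT) and rd10 retinas, and consisted of Lif, Cntf, Edn2, Fgf2, Lifr, Osmr, Il6st, Ednrb, Stat3 and Socs3. They were taken by symbol from the deposited expression table, and all 10 were found among its 22337 genes. Each passed the filter on low counts in every comparison. The 3 groups held 3 retinal libraries each, all collected at P28. WT retinas came from non-treated C57 BL/6J mice. The other retinas came from rd10 mice, which carry a mutation in the rod phosphodiesterase gene Pde6b and lose their photoreceptors. They had received 1 μl of normal saline (NS) or of MSC-EVs (named Exo in some labels) in both eyes at P14 and again at P21. Littermates of rd10 mice received one or the other, but which mice shared a litter is not given. MSC-EVs are extracellular vesicles, here from mesenchymal stem cells of human umbilical cord. WT eyes were not injected and WT mice came from another supplier than the rd10 mice, so that strain source, injection and the rd10 mutation cannot be told apart between WT and rd10. Nothing states that the 3 libraries of a group came from separate animals, and p-values measure the spread between these libraries.

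In an injured retina, photoreceptors are known to send stress signals that Müller glia, the radial support cells, answer with protective factors. LIF, a cytokine of the interleukin 6 family, binds its receptor LIFR together with the shared subunit gp130 (encoded by Il6st) and activates JAK kinases and the transcription factor STAT3, which in turn induces its own inhibitor SOCS3. In the damaged mouse retina, LIF is known to be produced by Müller glia and to raise endothelin 2 in photoreceptors and Fgf2, a survival factor for photoreceptors.

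For 4 of the genes, short stretches near the transcription start are shown because they hold the letters of a STAT or AP-1 binding motif, both being families of factors that act in this pathway. The sequences are from RefSeq promoters on GRCm38.p6, which cover 250 bases before and 50 bases after each start, and the capitals mark the motif. All 10 genes were matched, by 11 promoters. Both strands were searched.
Socs3, STAT motif, chr11:117969502-117969530, minus strand: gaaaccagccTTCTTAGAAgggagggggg
Lif, AP-1 motif, chr11:4257330-4257356, plus strand: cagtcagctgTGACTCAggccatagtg
Cntf, AP-1 motif, chr19:12765861-12765882, minus strand: gtatcTGACTCAtttaataagt
Osmr, AP-1 motif, chr15:6874294-6874320, minus strand: gccccgtagtTGATTCAtagctggggc
The STAT motif TTCNNNGAA was present for 1 of the 10 genes, Socs3, and in 9.55% of 27025 genes with a promoter in the table (8.3% of 32851 promoters). The AP-1 motif TGANTCA was present for 3 of the 10, against 8.97% of genes (7.81% of promoters). Counted from the RefSeq start, the match begins 154 bases before it in Socs3, 228 in Lif and 245 in Cntf, and lies just after it in Osmr. The gene positions given below are from another annotation. By these, the stretches of Socs3 and Osmr lie within the gene, and those of Lif and Cntf before it. These matches are letters in a window and show no binding.

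In WT retinas, Il6st, Stat3 and Lifr were the most abundant of the 10 genes and Lif was the least abundant. By FPKM, which scales fragments to transcript length and library depth and so allows levels of different genes to be compared, Il6st stood highest with 23.1 ± 1.41 (SD, n = 3), followed by Stat3 with 16.9 ± 0.558 and Lifr with 11.9 ± 0.42. Fgf2 had 7.84 ± 0.497 and Edn2 5.1 ± 0.613 FPKM. Below these lay Cntf (2.62 ± 0.501), Ednrb (2.17 ± 0.0351), Osmr (1.8 ± 0.112), Socs3 (1.35 ± 0.259) and Lif (0.153 ± 0.0351). The ranges of the WT libraries did not overlap between any neighbours in this order.

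In NS-treated rd10 the order was different. Stat3 stood highest with 62.2 ± 6.86 FPKM, and Fgf2, Il6st, Edn2 and Socs3 followed with means from 27.6 to 38 FPKM and overlapping ranges between neighbours. Osmr (15.5 ± 1.97) and Cntf (14.2 ± 1.37) overlapped each other, and below them came Lifr (8.93 ± 0.599). Ednrb (5.28 ± 1.5) and Lif (2.95 ± 1.45) overlapped at the bottom. With MSC-EVs, Stat3 (90.8 ± 3.32), Fgf2 (73.7 ± 7.77) and Il6st (55.6 ± 4.01) were separate at the top. Edn2, Socs3 and Osmr formed an overlapping series, as did Cntf and Lifr, and Lif was again the lowest with 1.97 ± 2.11 FPKM.

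**Figure D1:**
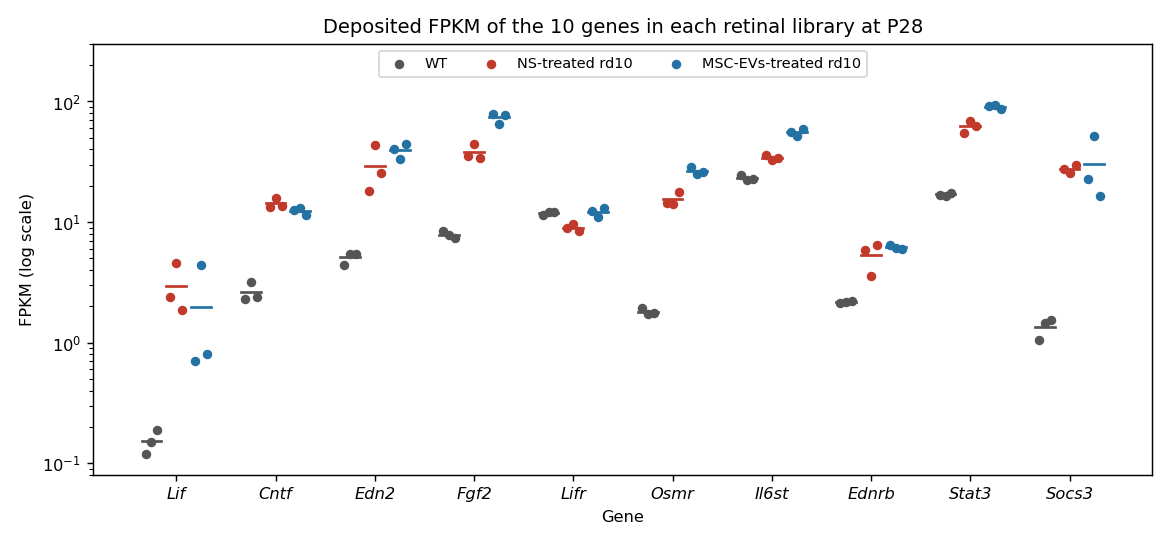
Deposited FPKM (vertical axis, log scale) of the 10 genes (horizontal axis) in the 9 libraries, with 1 point per library and a line at each group mean. The group means of Lif and Socs3 rise by more than a factor of 10 from WT to NS-treated rd10, and their MSC-EVs-treated points are spread widely, while those of Stat3 lie close together.

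NS-treated rd10 and WT retinas were compared to ask how these genes differ in the degenerating retina. All 10 genes differed, 9 being higher in NS-treated rd10 and 1, Lifr, being lower. They were called at an adjusted p under 0.05 in edgeR's quasi-likelihood test, with the Benjamini-Hochberg adjustment over all 14644 genes tested. In this comparison 61.3% of all genes tested were called, 31.2% as higher and 30.1% as lower. A rise of at least 1 on the log2 scale was found for 8 of the 10 genes, against 9.16% of all genes. For each of the 10, no NS-treated library lay within the WT range, which held for 66.9% of all genes. The median log2 fold change was 2.17 over the 10 genes and 0.005 over all genes. These are bulk retinas, in which fewer cells of a type and less RNA per cell cannot be told apart.

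Among the ligands, Lif had 0.12, 0.15 and 0.19 FPKM in the WT libraries and 2.4, 4.59 and 1.86 FPKM in the NS-treated ones. These values rest on 11, 14 and 16 counts in WT and on 272, 350 and 147 counts with NS. Every NS-treated library stood far above every WT library, and NS replicate 2 was the highest. The log2 fold change of Lif, on chromosome 11 from 4257557 to 4272514, was 4.10 (SE 0.43, edgeR adjusted p = 5.69e-05), a 17.1-fold difference.

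Cntf, the related ciliary neurotrophic factor, had 2.29, 3.2 and 2.38 FPKM in WT and 13.36, 15.83 and 13.56 FPKM with NS. This was a log2 fold change of 2.26 (SE 0.15, edgeR adjusted p = 1.23e-07). Cntf, on chromosome 19 from 12763660 to 12765632, shares 847 exonic bases, or 78.9% of its own, with Zfp91 on the same strand. Zfp91 had 11.3 to 16.6 times the FPKM of Cntf in WT and 2.8 to 3.07 times with NS. Zfp91 itself had a log2 difference of 0.04 (SE 0.06, edgeR adjusted p = 0.547), and how the reads were divided between the overlapping genes is not known, so the size of the rise of Cntf is uncertain.

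Edn2, the gene of endothelin 2, a small vasoactive peptide, had 4.39, 5.48 and 5.42 FPKM in WT and 18.09, 43.37 and 25.66 FPKM with NS. The groups did not overlap, and NS replicate 2 was again the highest. Edn2, on chromosome 4 from 120161206 to 120167360, had a log2 fold change of 2.32 (SE 0.39, edgeR adjusted p = 0.00449).

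Fgf2, basic fibroblast growth factor, had 8.38, 7.75 and 7.4 FPKM in WT and 35.06, 44.59 and 34.29 FPKM with NS. Its log2 fold change was 2.08 (SE 0.10, edgeR adjusted p = 5.85e-08). Fgf2, on chromosome 3 from 37348346 to 37410108, shares 640 exonic bases, or 9.44% of its own, with Nudt6 on the opposite strand, and whether reads were counted by strand is not stated. The level of Nudt6 was low, with means of 1.77 CPM in WT and 2.71 CPM with NS, against 50.4 and 214 CPM for Fgf2. CPM is the count relative to the depth of the library.

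The receptor subunits did not move together. Osmr, the oncostatin M receptor, which pairs with gp130, had 1.93, 1.72 and 1.76 FPKM in WT and 14.48, 14.24 and 17.77 FPKM with NS. Its log2 fold change was 2.92 (SE 0.10, edgeR adjusted p = 6.46e-10). Lifr, which pairs with gp130 for LIF, had 11.39, 12.17 and 12.05 FPKM in WT and 8.85, 9.57 and 8.38 FPKM with NS. It fell by 0.51 on the log2 scale (SE 0.06, edgeR adjusted p = 2.69e-05), with every NS-treated library below every WT library. The difference for Il6st, the shared subunit, was small, with 24.75, 22.14 and 22.54 FPKM in WT and 35.77, 32.59 and 33.8 FPKM with NS and a log2 fold change of 0.42 (SE 0.06, edgeR adjusted p = 7.93e-05).

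The ratio of Osmr to Lifr FPKM within a library was 0.169, 0.141 and 0.146 in WT. In NS-treated rd10 it was 1.64, 1.49 and 2.12, so that the more abundant of the gp130 partners was Lifr in every WT library and Osmr in every NS-treated library. With MSC-EVs the ratio was 2.31, 2.27 and 1.99, within or just above the range of NS-treated rd10. Osmr lies on chromosome 15 from 6813577 to 6874969 and Lifr on the same chromosome from 7090614 to 7197489.

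Ednrb, a receptor of the endothelins, had 2.14, 2.17 and 2.21 FPKM in WT and 5.81, 3.58 and 6.44 FPKM with NS. The WT libraries were almost alike and NS replicate 2, the library highest in Edn2, was the lowest of its group. Ednrb, on chromosome 14 from 103814625 to 103844402, had a log2 fold change of 1.09 (SE 0.20, edgeR adjusted p = 0.00138).

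The transducer Stat3, on chromosome 11 from 100885098 to 100939540, had 16.88, 16.42 and 17.53 FPKM in WT and 55.11, 68.8 and 62.8 FPKM with NS. This gave a log2 fold change of 1.70 (SE 0.07, edgeR adjusted p = 4.5e-09). Its inhibitor Socs3, on chromosome 11 from 117966079 to 117970047, had 1.05, 1.46 and 1.53 FPKM in WT and 27.59, 25.35 and 29.97 FPKM with NS. With a log2 fold change of 4.18 (SE 0.12, edgeR adjusted p = 2.69e-10), this was an 18.2-fold difference. The changes of Socs3 and Lif were the largest of the 10 genes, and which was the larger changed when NS replicate 3 was left out (4.13 for Socs3 and 4.35 for Lif). The ratio of Socs3 to Stat3 FPKM was 0.0622 to 0.0889 in the WT libraries and 0.368 to 0.501 in the NS-treated ones. The directions and calls of the 10 genes in this comparison were the same under 17 alternative analyses, which included leaving out each library.

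**Figure D2:**
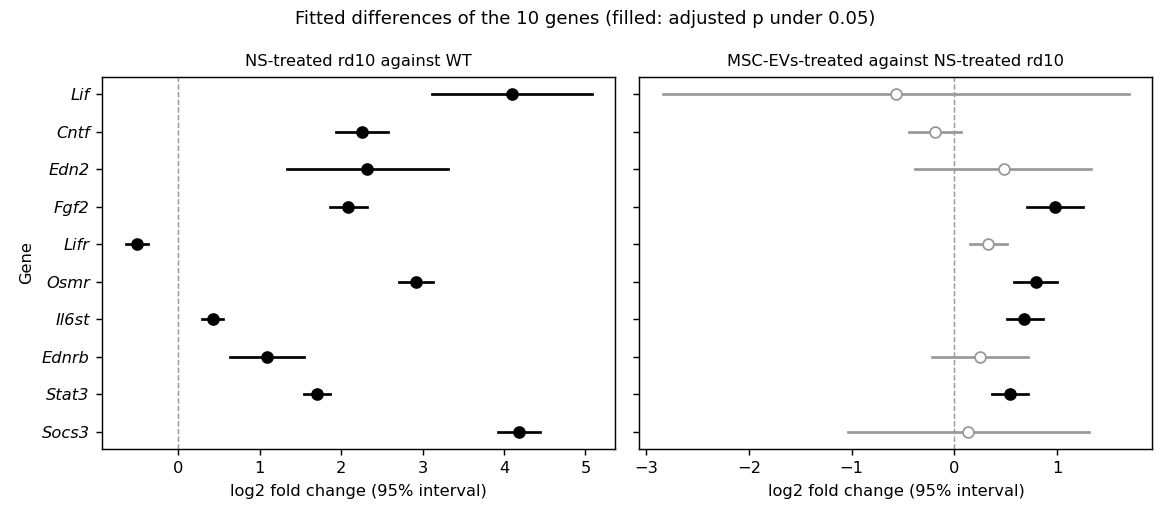
Log2 fold changes of the 10 genes from edgeR's quasi-likelihood test with 95% intervals, for NS-treated rd10 against WT (left) and MSC-EVs-treated against NS-treated rd10 (right). Filled points have an adjusted p under 0.05. On the left all 10 are filled, from -0.51 for Lifr to 4.18 for Socs3, and on the right only Fgf2, Osmr, Il6st and Stat3 are filled, while the interval of Lif runs from -2.84 to 1.70.

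MSC-EVs-treated and NS-treated rd10 retinas were compared to ask what the vesicles changed. This comparison shares the NS-treated libraries with the one above. Of the 10 genes, 4 were higher with MSC-EVs, namely Fgf2, Osmr, Il6st and Stat3, and 6 did not pass the test. Of all 14765 genes tested, 1.16% were called, 0.914% as higher. None of the 4 reached a difference of 1 on the log2 scale, which was reached with a call by 0.061% of all genes. The median log2 fold change was 0.40 over the 10 genes and -0.002 over all genes. In CPM the groups did not overlap for 6 of the 10 genes, against 26.3% of all genes.

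Fgf2 had 35.06, 44.59 and 34.29 FPKM with NS and 78.55, 64.71 and 77.73 FPKM with MSC-EVs. The groups did not overlap, and replicate 2 of each group was the library nearest to the other group. The log2 fold change was 0.98 (SE 0.12, edgeR adjusted p = 0.0209), a 1.97-fold difference. With the counts of Fgf2 and Nudt6 added together it was 0.97 (edgeR adjusted p = 0.0234).

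Osmr had 14.48, 14.24 and 17.77 FPKM with NS and 28.56, 25.15 and 26.01 FPKM with MSC-EVs, and rose by 0.79 on the log2 scale (SE 0.09, edgeR adjusted p = 0.0156). Il6st, on chromosome 13 from 112464070 to 112510086, had 35.77, 32.59 and 33.8 FPKM with NS and 56.34, 51.29 and 59.21 FPKM with MSC-EVs. It rose by 0.68 (SE 0.08, edgeR adjusted p = 0.015). Both genes were highest in the MSC-EVs-treated libraries and lowest in WT, with no overlap between any of the groups.

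Stat3 had 55.11, 68.8 and 62.8 FPKM with NS and 92.44, 92.99 and 86.98 FPKM with MSC-EVs. It rose by 0.54 on the log2 scale (SE 0.08, edgeR adjusted p = 0.0252). The MSC-EVs-treated libraries were close to each other, with a coefficient of variation of 2.66% in CPM, against 10.5% with NS.

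These 4 calls rested on single libraries. Without NS replicate 3 the adjusted p lay between 0.0525 for Osmr and 0.162 for Stat3, and without MSC-EVs replicate 1 between 0.116 for Osmr and Il6st and 0.141 for Stat3. None of the 14930 and 14915 genes then tested was called by edgeR, while 1991 and 2052 had an unadjusted p under 0.05. The log2 fold changes of the 4 genes without these libraries were between 0.54 and 0.94, and their unadjusted p was at most 0.00044.

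Genes of the Y chromosome set 2 of the libraries apart. The sum of Kdm5d, Uty, Ddx3y and Eif2s3y was 183 and 189 CPM in MSC-EVs replicates 1 and 2 and 0.237 to 0.501 CPM in the other 7 libraries. The labels give no sex, and the sex of the animals and the treatment cannot be told apart in these 2 libraries. MSC-EVs replicate 3, which lacked Y-linked expression as the NS-treated libraries did, had 77.73 FPKM of Fgf2, 26.01 of Osmr, 59.21 of Il6st and 86.98 of Stat3, above every NS-treated library in each gene. With replicate 3 as the only MSC-EVs library, and its spread taken to be that of the NS-treated libraries, Stat3 had a log2 fold change of 0.50 and was not called (edgeR adjusted p = 0.065), and the other 3 genes kept their call.

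The other 6 genes did not pass the test between the rd10 groups. Lifr had 8.85, 9.57 and 8.38 FPKM with NS and 12.35, 11.07 and 13.06 FPKM with MSC-EVs. The groups did not overlap, and the log2 fold change was 0.33 with a 95% interval from 0.15 to 0.51 (edgeR adjusted p = 0.074). Without MSC-EVs replicate 2 Lifr was called, with 0.39 (edgeR adjusted p = 0.0266).

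Cntf had 12.61, 12.95 and 11.45 FPKM with MSC-EVs, each below every NS-treated library, with a log2 fold change of -0.19 and an interval from -0.44 to 0.06 (edgeR adjusted p = 0.378). Edn2 had 40.37, 33.32 and 44.67 FPKM with MSC-EVs and overlapped the NS-treated range of 18.09 to 43.37. Its log2 fold change was 0.48, with an interval from -0.38 to 1.33 (edgeR adjusted p = 0.496). Ednrb had 6.41, 6.11 and 5.96 FPKM with MSC-EVs, within the range with NS, and a log2 fold change of 0.25 (interval -0.22 to 0.72, edgeR adjusted p = 0.532). The interval of Edn2 includes changes of the size found for each gene that was called. That of Ednrb includes those of Il6st (0.68) and Stat3 (0.54) but not those of Osmr (0.79) and Fgf2 (0.98).

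Lif and Socs3 were set apart from the other genes by the spread between the MSC-EVs-treated libraries. Lif had 0.7, 4.4 and 0.8 FPKM, so that replicate 2 lay within the NS-treated range of 1.86 to 4.59 and the others lay below it. Socs3 had 22.64, 51.29 and 16.49 FPKM, with replicate 2 above and the others below the NS-treated range of 25.35 to 29.97. The coefficient of variation of the CPM was 108% for Lif and 61.4% for Socs3 with MSC-EVs, and 49.4% and 8.09% with NS. The log2 fold change was -0.57 for Lif (95% interval -2.84 to 1.70, edgeR adjusted p = 0.772) and 0.13 for Socs3 (interval -1.04 to 1.31, edgeR adjusted p = 0.908).

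MSC-EVs replicate 2 decided both values. Without it, the log2 fold change was -1.93 for Lif (edgeR adjusted p = 0.0718) and -0.48 for Socs3 (edgeR adjusted p = 0.0744). With replicate 3 as the only MSC-EVs library, the log2 fold change of Socs3 was -0.71, and that single library gives no spread of its own. The ratio of Socs3 to Stat3 FPKM was 0.245, 0.552 and 0.19 with MSC-EVs and 0.501, 0.368 and 0.477 with NS.

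**Figure D3:**
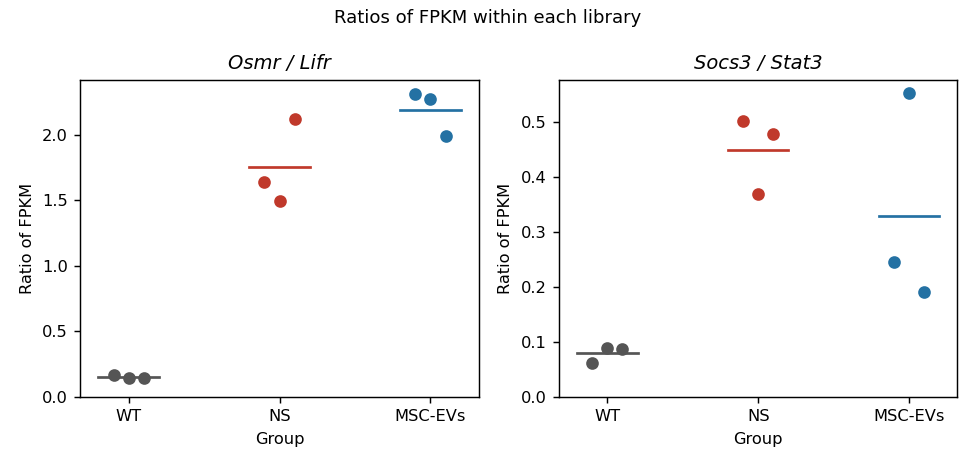
Ratio of Osmr to Lifr FPKM (left) and of Socs3 to Stat3 FPKM (right) in each of the 9 libraries, by group, with 1 point per library and a line at each group mean. The ratio of Osmr to Lifr is 0.141 to 0.169 in WT and at least 1.49 in every rd10 library, and that of Socs3 to Stat3 in MSC-EVs replicates 1 and 3 lies between the WT and NS-treated libraries.

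The other genes that shared this pattern among the MSC-EVs-treated libraries were looked for in the lists of the pathway, after the values of Lif and Socs3 had been seen. Relative to the mean of MSC-EVs replicates 1 and 3, the CPM of replicate 2 was 6 times as high for Lif and 2.62 times for Socs3. It was 3.93 times as high for Clcf1, a cytokine that acts through the CNTF receptor and gp130, and 3.43 times for Myc, 2.85 times for Cebpb, 2.37 times for Fos and 2.13 times for Junb, all transcription factor genes that STAT3 is known to induce. Genes of other lists were also high in replicate 2. In MSC-EVs replicates 1, 2 and 3, Socs1 had 1.55, 3.29 and 0.746 CPM and the FGF receptor gene Fgfr2 2.09, 6.11 and 2.47 CPM. Sox9, a Müller glia marker, had 36.2, 76.1 and 28 CPM. Several STAT3 targets did not share the pattern, with ratios of 0.982 for A2m, 0.996 for Vegfa, 1.05 for Lcn2 and Timp1, 1.08 for Serpina3n and 1.11 for Bcl3. The genes that had risen with MSC-EVs did not share it either. Replicate 2 stood at 0.83 times the mean of the others for Fgf2, 0.908 for Osmr, 0.865 for Il6st and 1.03 for Stat3.

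Clcf1 had 2.49, 8.22 and 1.68 FPKM with MSC-EVs against 5.63, 8.25 and 8.11 with NS and 0.69, 1.2 and 1.02 in WT. With every rd10 library kept, Clcf1 was not called (log2 difference -0.84, edgeR adjusted p = 0.519). Dropping MSC-EVs replicate 2 moved the difference to -1.82 (edgeR adjusted p = 0.0052). Clcf1 was picked for its high value in that very library. Dropping it therefore shifts the mean and narrows the spread by construction, and no group difference is concluded from that fit. Il6, interleukin 6, had no count in WT, 4, 4 and 7 counts with NS and 0, 11 and 0 counts with MSC-EVs, and was too low to be tested. Of the 20 genes on the list of STAT3 targets, 13 were highest in replicate 2 within the MSC-EVs group, or 65%, against 34.2% of all genes tested. No test of this share was made.

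Markers of microglia and macrophages shared this pattern in part. Of all genes tested, 34.2% were highest in MSC-EVs replicate 2 and 35.1% were lowest in replicate 3. Lowest in replicate 3 were also 80% of the STAT3 targets and 75% of the Müller glia markers, but 0% of the rod markers. Of the 12 microglia and macrophage markers, 11 were highest in replicate 2 and all 12 were lowest in replicate 3. Their summed CPM was 369, 451 and 251 in MSC-EVs replicates 1, 2 and 3, so that replicate 1, unlike its level of Lif, lay at the upper end of the range with NS, which was 291 to 371. In WT it was 41.1 to 43.5, and none of the 12 was at 0 in any group. Of 7 markers of infiltrating myeloid cells tested, 5 were highest in replicate 1 and 2 in replicate 2, and all 7 were lowest in replicate 3, with sums over 9 such genes of 8.15 to 42.6 CPM with MSC-EVs and 11.9 to 26.8 CPM with NS. Of 9 lens markers tested, 8 were also highest in replicate 2, and the sum over all 10 lens markers was 15.9 to 161 CPM over the MSC-EVs libraries and 42.3 to 179 CPM in WT. The part of these cells in the values of Lif and Socs3 was not tested.

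**Figure D4:**
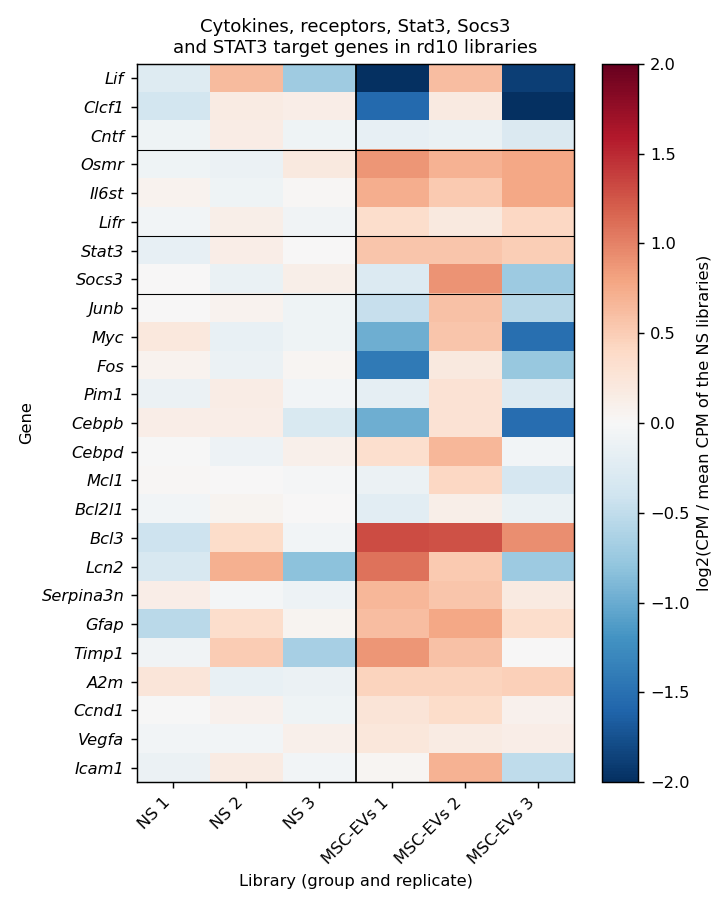
Log2 ratio of each rd10 library's CPM to the mean CPM of the NS-treated libraries (colour, white at 0, with values beyond 2 in either direction drawn in the end colour) for cytokine, receptor, Stat3, Socs3 and STAT3 target genes (rows) in the 3 NS-treated and 3 MSC-EVs-treated libraries (columns). Osmr, Il6st, Stat3 and Bcl3 are above 0 in all MSC-EVs libraries, whereas Lif, Clcf1, Socs3, Myc and Cebpb are above 0 in replicate 2 and below 0 in replicates 1 and 3.

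Compared with WT, all 10 genes differed in MSC-EVs-treated rd10 as well, with 9 higher and Lifr lower, where 55.5% of 14623 genes were called, 28.3% as higher and 27.2% as lower. This comparison shares its WT libraries with the first and its MSC-EVs libraries with the second. The rise was at least 1 on the log2 scale for 9 genes (9% of all genes), and the median was 2.52 against -0.004 over all genes. In CPM the groups did not overlap for any of the 10 (65.2% of all genes), whereas in FPKM those of Lifr did. The log2 fold change was 3.07 for Fgf2 (SE 0.09, edgeR adjusted p = 3.01e-08), 3.71 for Osmr (SE 0.08, edgeR adjusted p = 2.24e-09) and 2.25 for Stat3 (SE 0.06, edgeR adjusted p = 5.92e-09). For Il6st it was 1.11, for Edn2 2.80, for Cntf 2.07 and for Ednrb 1.34, with an edgeR adjusted p of at most 4.78e-06.

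Socs3 was 4.32 higher on the log2 scale than in WT (SE 0.61, edgeR adjusted p = 0.00334), and without MSC-EVs replicate 2 the value was 3.69 (adjusted p = 8.87e-07). Lif was 3.54 higher (SE 1.02, edgeR adjusted p = 0.0322), a call that was lost without WT replicate 1, 2 or 3 (adjusted p between 0.0805 and 0.0947), while without MSC-EVs replicate 2 the value was 2.15 (adjusted p = 7.98e-05). Lifr was 0.18 lower (SE 0.07, edgeR adjusted p = 0.0435), but its FPKM of 12.35, 11.07 and 13.06 lay on both sides of the WT range of 11.39 to 12.17. In FPKM the direction of Lifr was reversed, with a log2 difference of 0.03 in limma, and its call was lost without WT replicate 2 or 3 or MSC-EVs replicate 1 or 2 (adjusted p between 0.0783 and 0.148).

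The wider pathway was described by lists of related genes. Each of the 10 genes above is also in at least 1 of these lists. Their calls are counted again there, so the shares of the lists are not independent of the results above. Of 10 cytokines that signal through gp130, 5 passed the filter between WT and NS-treated rd10. Of these, 4 rose, against 31.2% of all genes tested, and 1 did not pass the test, with a median log2 fold change of 2.26. The largest rise was that of Lif, and Clcf1 rose by 2.73 (SE 0.21, edgeR adjusted p = 4.71e-07). Osm, which encodes the ligand of OSMR, was too low to be tested, with 0, 0 and 1 counts in WT, 11, 23 and 8 with NS and 9, 11 and 13 with MSC-EVs. With MSC-EVs, 0 of 5 cytokines were called by edgeR, against 1.16% of all genes. Of the 5, 1, Ctf1, had an unadjusted p under 0.05, with a log2 difference of -0.76 (edgeR adjusted p = 0.114).

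Of 7 receptors of these cytokines, 6 were tested. In NS-treated rd10, 4 of them rose, against 31.2% of all genes, and 2 fell, against 30.1%. The largest rise was that of Il6ra, the interleukin 6 receptor, with 3.31 (SE 0.23, edgeR adjusted p = 1.59e-07). Cntfr, which binds CNTF, rose by 0.46, and the receptors that fell were Lifr and Il11ra1, which fell by 0.45. With MSC-EVs, Osmr and Il6st were higher, against 0.914% of all genes, and the other 4 did not pass the test. Among these, Il6ra had a log2 fold change of 0.12 and Cntfr of -0.28 (edgeR adjusted p = 0.115).

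Of 11 JAK kinases and STAT factors, 8 rose and 3 did not pass the test in NS-treated rd10, with a median of 0.84, where 61.3% of all genes were called and 31.2% were higher. Jak3 rose by 1.85 (SE 0.18), whereas Jak1, a kinase that gp130 uses, had a log2 difference of -0.02 (SE 0.05, edgeR adjusted p = 0.825). The largest fitted rise, that of Stat4, rests on 0, 0 and 3 counts in WT and 38, 12 and 22 with NS, and is given without a fold. With MSC-EVs, Stat3 was the only one of the 11 to be called. Jak1 came next, with 0.27 (SE 0.06, edgeR adjusted p = 0.0657).

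Of 15 inhibitors of the pathway, 6 rose, 7 fell and 2 were not called in NS-treated rd10, with a median of -0.09. Over all genes tested, 31.2% rose and 30.1% fell, in about the same balance. Besides Socs3, those that rose were Socs1, Socs2, Socs5, Socs6 and Ptpn6, with log2 fold changes from 0.15 for Socs5 to 1.93 for Ptpn6. The largest fall was that of Pias3, a protein inhibitor of activated STAT3, by 0.86 (SE 0.07, edgeR adjusted p = 1.02e-06), and Pias1, Pias2, Pias4, Socs7, Ptpn2 and Cish also fell. With MSC-EVs, 2 of 15 were called, both as higher, against 0.914% of all genes. Ptpn2, a phosphatase of JAK kinases and STATs, rose by 0.54 (SE 0.10, edgeR adjusted p = 0.0425), and Socs7 rose by 0.34 (SE 0.07, edgeR adjusted p = 0.0447). Both calls were lost when any single library other than MSC-EVs replicate 2 was left out, with an adjusted p between 0.0583 and 0.209.

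In NS-treated rd10, all 20 of the STAT3 targets, Socs3, Stat3 and Osmr among them, were called as higher than WT. Their median was 2.79, and 31.2% of all genes tested were called as higher. The largest fitted rise was that of Timp1, an inhibitor of metalloproteinases, with 5.68 (SE 0.55, edgeR adjusted p = 0.000121). It rests on 2, 13 and 3 counts in WT and 410, 420 and 202 with NS, so its size is uncertain. Serpina3n, a protease inhibitor of reactive glia, rose by 5.33 (SE 0.09) and Gfap, the intermediate filament of reactive glia, by 2.67 (SE 0.26). With MSC-EVs 3 of the 20 were called, all as higher, against 0.914% of all genes, and the median was 0.21. Beside Osmr and Stat3 this was Bcl3, a nuclear member of the IκB family, which rose by 1.19 (SE 0.20, edgeR adjusted p = 0.0447).

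Bcl3 had 8.84, 15.02 and 10.63 FPKM with NS and 29.48, 27.19 and 23.66 FPKM with MSC-EVs. The groups did not overlap. Its call was lost without NS replicate 3 or MSC-EVs replicate 1 or 2 (edgeR adjusted p between 0.051 and 0.206), with Y-linked expression as a covariate (0.94, adjusted p = 0.116) and without both libraries that had Y-linked counts (0.96, adjusted p = 0.112). Serpina3n and A2m had log2 fold changes of 0.48 and 0.46 between the rd10 groups (edgeR adjusted p = 0.0882 and 0.0634).

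In the endothelin system, 5 of 7 genes rose and 2 were not called in NS-treated rd10, against 61.3% of all genes called and 31.2% higher. After Edn2 and Ednrb the largest rise was that of Edn1, with 1.05 (SE 0.22, edgeR adjusted p = 0.00114), and Ece1, the enzyme that cuts the precursors to active endothelins, rose by 0.59 (SE 0.06, edgeR adjusted p = 3.01e-06). Of 6 tested with MSC-EVs, 0 were called by edgeR and 0 had an unadjusted p under 0.05. Edn3 was lower in MSC-EVs-treated rd10 than in WT, by 2.30 (SE 0.39, edgeR adjusted p = 0.000787), on 7, 4 and 15 counts against 22, 21 and 32.

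In the FGF system, 7 of 15 genes rose, 1 fell and 7 were not called in NS-treated rd10, where 61.3% of all genes tested were called, so the share called was not above that of all genes. Fgf2 had the largest rise, and its receptor gene Fgfr1 rose from 31.8 ± 1.52 to 78.3 ± 9.73 CPM (SD, n = 3, edgeR adjusted p = 2.21e-07). Of the feedback inhibitors of FGF signalling, Spry1 rose by 1.35 and Dusp6 by 1.03, while Spry2 fell by 0.61. With MSC-EVs, Fgf2 was the only gene of the 15 to be called. Dusp6 had a log2 difference of -0.39 (edgeR adjusted p = 0.114) and Etv5, a transcription factor gene induced by FGF, of 0.01 (edgeR adjusted p = 0.973).

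For 4 of the genes, the genes of the table whose pattern was most like theirs were named by the correlation of log2(CPM + 0.5) over the 9 libraries among 14452 genes. For Stat3 these were Fmnl2 (Pearson r = 0.997), Col4a1 (0.996) and Nav1 (0.995), and for Socs3 they were Vat1 (0.997), Agt (0.996) and Robo1 (0.996). For Lif, Pmp22 (0.992) and Maff (0.986) were among them, and for Edn2 they were Acot9 (0.992), Pcolce (0.989) and Fndc3b (0.989). Most of the spread behind these values is the gap between WT and rd10, which many genes share.

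The libraries held 19491717 to 62532343 counts, MSC-EVs replicate 3 being the deepest, and 1 count stood for 0.016 to 0.0513 CPM. Replicates differed by more than counting noise, which would give a chi-square of about its degrees of freedom. Divided by these, it was 3.99 to 5.67 within WT, 9.17 to 14.1 within NS and 13.2 to 30.2 within MSC-EVs. Within MSC-EVs, replicates 1 and 2 gave 13.2, and the pairs with the deeper replicate 3 gave 21.4 and 30.2. The measure was taken on counts and also depends on depth, so it does not rank the groups by spread. Markers of rods, which are found in the retina alone, summed over 12 genes to 80042 to 85813 CPM in WT, 16100 to 23117 with NS and 16697 to 23387 with MSC-EVs. The sum over 12 Müller glia markers was 5818 to 6181 CPM in WT, 9296 to 10837 with NS and 8796 to 8955 with MSC-EVs, none of them at 0. From WT to NS-treated rd10, 31.2% of all genes tested were called as higher. Of the 12 markers of microglia and macrophages, all rose, with a median log2 fold change of 3.41. For infiltrating myeloid markers, 6 of 7 tested rose, with a median of 4.89 (3.04 to 3.72 summed CPM in WT), and for astrocyte markers 4 of 5 rose, with a median of 1.73 (77.7 to 87.7 and 299 to 482 CPM). The Müller glia markers had a median of 0.83. Glial and myeloid marker sums were higher in rd10 than in WT, as were Lif, Osmr, Socs3 and the STAT3 targets. Rod sums were lower, as were Lifr and the other genes that fell. The part of these cells in any difference between WT and rd10 was not tested. Between the rd10 groups the rod sums overlapped, and the Müller glia sums were lower with MSC-EVs in every library. These sums weigh abundant genes most. Taken gene by gene, 1 of the 12 Müller glia markers was called as lower with MSC-EVs and 11 were not called. Their median log2 fold change was -0.14, and 1.16% of all genes tested were called in that comparison.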

How the data were processed

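RNA of mouse retinas was enriched for messenger RNA and sequenced by the authors, 3 libraries per group. The submitters' processing notes name fastp, Bowtie2, HISAT2, StringTie 1.3.1 and RSEM; the genome build, the annotation and the use of strand in counting are not given in the sources used here. The authors deposited 1 table for 22337 genes with an estimated count, not scaled to depth, and an FPKM value, which they had scaled to transcript length and depth. FPKM is used here to compare levels between genes, and counts to compare groups. Counts carried decimals in 9.16% to 11.7% of genes per library and were rounded.

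Each pair of groups, 6 libraries in all, was fitted with edgeR 4.0.16 (R 4.3.3, filterByExpr defaults, TMM factors, glmQLFit with robust estimation, glmQLFTest), after a test on simulated data. A gene was called at a Benjamini-Hochberg adjusted p under 0.05 over all genes tested. A second rule also asked for a difference of at least 1 on the log2 scale in either direction. Reported CPM are scaled by the TMM factors. The shares of genes whose groups did not overlap were taken in CPM. Alternatives were other normalizations, tests (DESeq2 1.42.0, edgeR's exact test, limma 3.58.1 on log2(FPKM + 1) and log2(FPKM + 0.1)) and filters, a fit of all 9 libraries, a replicate block, a covariate for Y-linked expression, and each library left out. Leaving out both MSC-EVs libraries with Y-linked counts and adding Nudt6 to Fgf2 were chosen after seeing the data. A fit that leaves 1 library in a group takes its spread to be that of the other group.

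The 10 genes and the lists were chosen with earlier results of these data known. All 10 genes are named in every comparison, and in each list at least the called genes with the largest rise and fall. Positions and overlaps are those of GENCODE M21 on GRCm38, matched by gene identifier. Some genes that these rules cover are not reported here.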

Additional observations from a re-analysis of the deposited data

How the results depend on the processing

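Between NS-treated rd10 and WT, the 10 genes kept direction and call in all 170 checks (17 alternatives each). The size of Lif depended on the scale there, from 1.72 to 4.35 on the log2 scale, since a pseudocount shrinks low genes. In FPKM, the median log2 fold change of all genes moved to 0.14 (log2(FPKM + 1)) and 0.17 (log2(FPKM + 0.1)) in this comparison, and to 0.12 and 0.15 for MSC-EVs against WT. Requiring a difference of at least 1 on the log2 scale left 1863 of 8972 genes, and 1784 of 8117 for MSC-EVs against WT. Between NS and MSC-EVs, 4 of the 10 were called. The number was 0 with limma on unfiltered log2(FPKM + 1), where no gene was called and 3316 had an unadjusted p under 0.05, 0 with a difference of at least 1 required, and 0 to 5 when single libraries were left out (5 without MSC-EVs replicate 2, 0 without NS replicate 3 or MSC-EVs replicate 1). Over all genes, 172 were called, against 947 with DESeq2, 693 with the exact test, 1026 with all 9 libraries in one fit, 94 with limma at either pseudocount, 295 without both libraries that had Y-linked counts, 9 with a difference of at least 1 required, and 0 to 676 when single libraries were left out. Stat3 was also lost with Y-linked expression as a covariate (0.50, edgeR adjusted p = 0.0669), and Lifr was gained with DESeq2, the exact test and the 9-library fit (adjusted p between 0.0106 and 0.0245). Socs3 between the rd10 groups reversed to -0.03 with the replicate block, -0.04 with limma, -0.48 without MSC-EVs replicate 2 (range over single libraries left out -0.48 to 0.43), and -0.71 both with the Y-linked covariate and without both Y-linked libraries. Lifr against WT reversed to 0.03 with limma. Lif against WT was lost in 6 alternatives, and was 2.25 with the Y-linked covariate (adjusted p = 0.231). The cause of these shifts was not tested, beyond the smaller number of libraries in the leave-outs.

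The labels number the replicates 1 to 3 in every group. Deviations from the group means correlated between same-numbered libraries at -0.0787 to 0.272 over 9 pairs, and between the others at -0.233 to 0.151 over 18 pairs (14127 genes). These pairs include those with WT, and the main fits did not pair libraries by number. For NS and MSC-EVs the same-numbered pairs had 0.0808, 0.209 and 0.272, and each NS library correlated best with its own number, where the 6 other pairs had -0.233 to -0.00746. The rd10 mice of both groups were littermates, but no label ties a number to a litter, so whether the numbers pair the rd10 libraries is not known. With the replicate block, 403 genes were called between the rd10 groups, and the same number of the 10 genes as without it, 4.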
